A study of Mus musculus with 10 samples.

Results

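A set of 10 genes of endothelial BMP and TGF-β signaling was examined in cells sorted as meningeal lymphatic endothelial cells (LECs) from female mice. They encode 5 receptors (Eng, Acvrl1, Bmpr2, Tgfbr1 and Tgfbr2), 2 inhibitory Smads (Smad6 and Smad7) and 3 Id proteins (Id1, Id2 and Id3). The genes were taken as the rows whose symbol equals 1 of these names, which gave 10 of the 55401 genes listed, and all 10 were among the 14815 genes with enough counts to be tested. The comparison asked whether their RNA differed between mice exposed to sub-chronic variable stress (SCVS) and naive mice.

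LECs were sorted as viable CD45-CD31+podoplanin+ cells from the meninges of 3-month-old female C57BL/6 mice (C57BL/6J in the study's methods), with 5 naive replicates and 5 SCVS replicates. SCVS mice went through foot shock, tail suspension and restraint in alternation over 6 days, while naive mice received no stressor. Every replicate was a pool of 3 to 4 meninges, digested in the presence of actinomycin D, an inhibitor of transcription, in both groups. The RNA was amplified before sequencing, and the total count per replicate was between 10421467 and 13975282 in naive mice and between 9984743 and 14094155 in SCVS mice. Levels are given as CPM, the count divided by the replicate's total and multiplied by 1000000. A count of 3, taken as the floor of detection, equals 0.213 to 0.3005 CPM at these depths, and it accounts for counting error alone, since copies of 1 molecule made by amplification are counted as separate reads. Levels of a group are means ± SD over its 5 replicates (n = 5 in each group).

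BMP and TGF-β ligands bind pairs of type I and type II receptor kinases, which phosphorylate receptor Smads that enter the nucleus with Smad4. In endothelial cells, circulating BMP9 and BMP10 act mainly through ALK1, the product of Acvrl1, with BMPR2 as a type II partner and endoglin as a co-receptor. The Id genes and the inhibitory Smads are classical targets of this arm, the latter closing a negative feedback loop, and ALK1 signaling is known to take part in the growth of lymphatic vessels.

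The sorted identity was checked against marker genes before the pathway genes were compared. The pan-endothelial markers Pecam1, Cdh5, Tek, Tie1, Kdr, Emcn and Erg summed to 5608, 4898, 6694, 4157 and 434 CPM in naive replicates 1 to 5 and to 6161, 6413, 4113, 3741 and 3712 CPM in SCVS replicates 1 to 5. Naive replicate 5 therefore stood apart, with Pecam1 at 21.5 CPM and Cdh5 at 3.00 CPM, and Emcn, the most abundant gene of the list, at 257 CPM. The 9 lymphatic markers summed to 74.4, 2929, 1068, 1367 and 196 CPM in naive replicates and to 1421, 1176, 3243, 3193 and 471 CPM in SCVS replicates, with Mmrn1 as the most abundant. Naive replicate 1 had the lowest sum, with 0 counts of Prox1, Pdpn and Tbx1, 2 of Lyve1 and 5 of Reln, beside 376 counts of Flt4, 165 of Mmrn1, 141 of Maf and 86 of Ccl21a. Naive replicate 5 had 1 count of Lyve1, 843 counts of Prox1 and 351 counts of Pdpn. Among SCVS libraries, replicate 5 had 2 counts of Prox1, under the floor, with 971 counts of Lyve1 and 198 counts of Pdpn, and replicate 1 had 15 counts of Prox1.

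Markers of other cells were present in many libraries despite the sort. Blood endothelial markers, led by Plvap, summed to 313 CPM in naive replicate 5 and to between 5219 and 10273 CPM in the other 9 replicates, above the lymphatic sum in every replicate. The members' levels below are therefore those of the sorted cells as a whole. The part of blood endothelial and other cells in them was not tested. Mural markers, led by Rgs5, ranged from 453 to 7591 CPM and stood at 5078 CPM in naive replicate 5. Neural and glial markers, led by Mbp, ranged from 151 to 3278 CPM with their highest sum in naive replicate 5, and Mog had at most 1 count in any replicate. Leukocyte markers, led by Lyz2, ranged from 7.77 to 3559 CPM. Fibroblast markers, led by Dcn, ranged from 18.5 to 1627 CPM and erythroid markers, led by Hba-a1, from 4.32 to 4863 CPM. Immediate early genes ranged from 151 to 2162 CPM. Fos led them in the mean over all replicates, with 1011 CPM in naive replicate 1. In SCVS mice Egr1 was higher, at 182 CPM where Fos had 98.1 CPM. Between the groups, 5 of 6 tested fibroblast markers and 6 of 7 mural markers had log2 fold changes below 0 in SCVS mice, with medians of -2.70 and -1.65, and 6 of 7 tested leukocyte markers and 5 of 5 erythroid markers had values above 0, with medians of 1.24 and 6.02. The erythroid median was 0.81 without SCVS replicate 5, which held the sum of 4863 CPM, that of the mural markers was -0.26 without naive replicate 1 and -0.59 without naive replicate 2, and that of the leukocyte markers was 6.38 without naive replicate 4 and 0.81 without SCVS replicate 4. The 6 tested neural and glial markers were below 0 with a median of -0.19, which turned to 1.05 without naive replicate 5. None of these marker genes passed an adjusted p under 0.1 in edgeR, and 7 had an unadjusted p under 0.05, beside 3.1% of all tested genes. They were 3 of 5 tested erythroid markers (Hba-a1, Hba-a2 and Hbb-bs) and 2 of 6 fibroblast markers (Col1a2 and Col3a1). The others were 1 of 7 mural markers (Acta2) and 1 of 7 leukocyte markers (Ptprc). DESeq2 called Acta2 and Ptprc, beside 0.814% of all genes in that test. In pooled bulk cells, fewer endothelial cells and less RNA per endothelial cell cannot be told apart.

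In each replicate, the 10 genes together made up 4545, 3805, 4935, 4419 and 959 CPM in naive mice and 4214, 4181, 2822, 3140 and 2859 CPM in SCVS mice. Their sum was 3733 ± 1603 CPM in naive and 3443 ± 699.7 CPM in SCVS mice (n = 5 each). The difference in means of -289 CPM depended on single replicates, being -983 CPM without naive replicate 5, where 3 SCVS sums lay below every naive one, and 11.1 CPM without naive replicate 3. The low naive sum belonged to replicate 5, which had the lowest value of all 10 replicates for 6 of the genes alone and shared the value of 0 for Smad6. No member was called between SCVS and naive mice by edgeR's quasi-likelihood test (Benjamini-Hochberg adjusted p under 0.1), where 0% of the 14815 tested genes were called, and each member had an adjusted p of 0.99996 in edgeR. At an unadjusted p under 0.05 the count was 0 of 10 members beside 460 tested genes (3.1%), a number that reached 812 without naive replicate 5 and 683 without naive replicate 4. DESeq2 called 0 members beside 114 of 13998 genes (0.814%), with an adjusted p of 0.9997 for each member. In 0 of the 10 members did the CPM of the groups separate without overlap, as they did in 93 tested genes (0.628%). Fold changes below 0 were found for 8 members and above 0 for Tgfbr1 and Tgfbr2, with a median log2 fold change of -0.16 beside -0.03 over all tested genes, of which 51.8% were lower in SCVS mice. This split rested on single libraries, since without naive replicate 1 or naive replicate 3 it was 5 higher and 5 lower. The members' median ranged from -0.42 without naive replicate 5 to 0.0079 without naive replicate 1. Without naive replicate 5, 1 of 7 pan-endothelial, 1 of 8 blood endothelial and 0 of 7 immediate early markers were above 0. Their medians were then -0.26, -0.39 and -0.58. With all replicates 5, 3 and 1 of them were above 0, with medians of 0.02, -0.10 and -0.34. The part of these shifts in the members' values was not tested. The median size of the log2 fold change, regardless of sign, was 0.25 for the members and 0.58 for all tested genes. The latter value was not matched for level or spread. In level, Acvrl1 was at the 95.5 percentile of tested genes and Id3 at the 99.6, whereas Smad6 was at the 31.4.

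**Figure D1:**
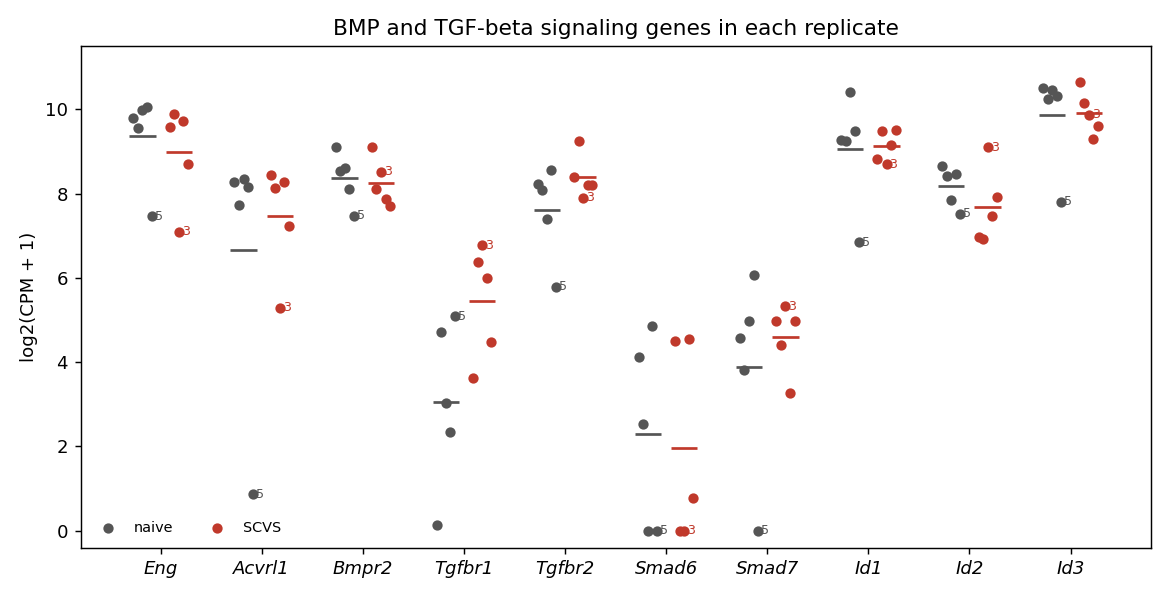
Level of each gene in each replicate as log2(CPM + 1), with naive replicates in grey and SCVS replicates in red, 5 per group. Horizontal bars mark the group mean of the plotted values, and the numerals mark naive replicate 5 and SCVS replicate 3; the groups overlap for all 10 genes, and naive replicate 5 is far below the other naive replicates for Acvrl1 at 0.825 CPM.

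Among the receptors, Eng (ENSMUSG00000026814, chr2:32646595-32682669, coordinates of GRCm38.p6 here and below) encodes endoglin, the co-receptor that presents BMP9 and BMP10 to ALK1. Eng was counted at 887, 756, 1007, 1054 and 176 CPM in naive replicates 1 to 5 and at 766, 949, 135, 835 and 413 CPM in SCVS replicates 1 to 5. The groups overlapped, with 1 low replicate in each group (naive 5 and SCVS 3) and SCVS replicate 5 between these and the rest. Mean levels were 776 ± 355 CPM in naive and 619.7 ± 337 CPM in SCVS mice, and the log2 fold change of -0.39 (SE 0.53, 95% interval -1.56 to 0.77) was within the error. It moved with single replicates, to -0.13 without SCVS replicate 3 and to -0.64 without naive replicate 5. Relative to 100 CPM of the pan-endothelial markers, Eng amounted to 40.5 CPM in naive replicate 5, 3.28 CPM in SCVS replicate 3 and 11.1 to 25.4 CPM in the others. The low Eng of naive replicate 5 thus came with low pan-endothelial markers, whereas that of SCVS replicate 3 did not.

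Acvrl1 (ENSMUSG00000000530, chr15:101128522-101145336), the gene of the type I receptor ALK1, gave 306, 211, 326, 282 and 0.825 CPM in naive mice and 344, 279, 38.2, 308 and 148 CPM in SCVS mice. Naive replicate 5 held 11 counts of Acvrl1 and SCVS replicate 3 held 471, and the remaining 8 replicates overlapped between groups. The means were nearly equal, 225 ± 133 CPM in naive and 223 ± 127 CPM in SCVS mice, with a log2 fold change of -0.08 (SE 0.95, 95% interval -2.15 to 2.00). For every 100 counts of Eng there were between 26.7 and 44.9 counts of Acvrl1 in 9 replicates and 0.469 in naive replicate 5. In that replicate Acvrl1 was low also beside the pan-endothelial markers, at 0.190 CPM per 100 CPM of their sum, followed by 0.929 CPM in SCVS replicate 3 and 3.98 to 8.23 CPM in the others. The sign of the Acvrl1 fold change turned with single replicates, from a log2 fold change of -0.39 without naive replicate 5 to 0.20 without SCVS replicate 3.

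Bmpr2 (ENSMUSG00000067336, chr1:59764279-59878081) encodes the type II receptor that partners ALK1. Its level was 546, 372, 391, 275 and 177 CPM in naive mice and 546, 274, 365, 234 and 206 CPM in SCVS mice. All 5 SCVS values lay inside the naive range, and Bmpr2 was the member with the smallest spread between replicates. Mean levels of 352 ± 138 CPM in naive and 325 ± 137 CPM in SCVS mice gave a log2 fold change of -0.17 (SE 0.38, 95% interval -0.998 to 0.66). SCVS replicate 3, which was low in Eng and Acvrl1, was not low in Bmpr2, with 271 counts of Bmpr2 per 100 counts of Eng where the other replicates had 26.0 to 101. The Bmpr2 log2 fold change was 0.070 without naive replicate 1 and -0.43 without SCVS replicate 1.

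Tgfbr1 (ENSMUSG00000007613, chr4:47353222-47414926), the gene of the type I TGF-β receptor ALK5, had the largest fold change of the 10 members. Counts of 1, 325, 100, 55 and 440 in naive mice corresponded to 0.0960, 25.4, 7.16, 4.05 and 33.0 CPM. In SCVS mice the counts were 159, 995, 1340, 827 and 212, or 11.3, 81.7, 109, 62.5 and 21.2 CPM. All 5 SCVS replicates were above the naive median of 7.16 CPM and 3 were above every naive replicate, but SCVS replicates 1 and 5 lay within the naive range. The mean was 13.95 ± 14.4 CPM in naive and 57.1 ± 40.9 CPM in SCVS mice. The log2 fold change of 2.00 (SE 1.15) had a 95% interval of -0.51 to 4.51, which includes 0, and did not pass the test (edgeR adjusted p = 0.99996, DESeq2 adjusted p = 0.9997). With single replicates left out it ranged from 1.59 without SCVS replicate 3 to 2.63 without naive replicate 5. Of the 9 lymphatic markers, 7 had log2 fold changes above 0, with a median of 0.82. Without SCVS replicate 3 there were 4, with a median of -0.0038. Without naive replicate 2 all 9 were above 0, with a median of 1.31, and with a replicate block all 9 were, with a median of 1.34. Naive replicate 1 was lowest in both Tgfbr1 and the lymphatic sum, and SCVS replicates 3 and 4, with the highest lymphatic sums, ranked 1 and 3 in Tgfbr1. Naive replicate 5, with the next lowest lymphatic sum, had the highest naive Tgfbr1. Naive replicate 2, with a lymphatic sum of 2929 CPM, had 25.4 CPM of Tgfbr1. SCVS replicate 2, with a lymphatic sum of 1176 CPM, ranked 2 in Tgfbr1. Leukocyte markers, of which 7 of 8 were tested, summed to 7.77, 148, 36.1, 519.6 and 49.2 CPM in naive and to 193, 142, 725, 3559 and 221 CPM in SCVS replicates. They were highest in SCVS replicate 4, followed by SCVS replicate 3. Naive replicate 4 came next, at 519.6 CPM, and had 4.05 CPM of Tgfbr1. The part of other cells in the Tgfbr1 values was not tested.

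Tgfbr2 (ENSMUSG00000032440, chr9:116087695-116175363) encodes the type II receptor that binds TGF-β and recruits ALK5. It was counted at 299.7, 271, 168, 374 and 54.1 CPM in naive and at 335, 604, 237, 294 and 295 CPM in SCVS replicates. SCVS replicate 2 was the only SCVS value above the naive range, and naive replicate 5 was the lowest. The means of 233 ± 125 CPM in naive and 353 ± 145 CPM in SCVS mice differed by a log2 fold change of 0.53 (SE 0.45, 95% interval -0.46 to 1.52), which was 0.29 without naive replicate 5 and 0.31 without SCVS replicate 2. Of the counts on the TGF-β receptor pair, Tgfbr1 took 37.9% in naive replicate 5 and 31.4% in SCVS replicate 3, with 1.07% to 17.5% in 7 others. In naive replicate 1 the single count of Tgfbr1, under the floor, allows a share of up to 0.178% (exact Clopper-Pearson 95% interval, counting error only). The relative supply of the pair's RNA thus varied widely within each group.

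**Figure D2:**
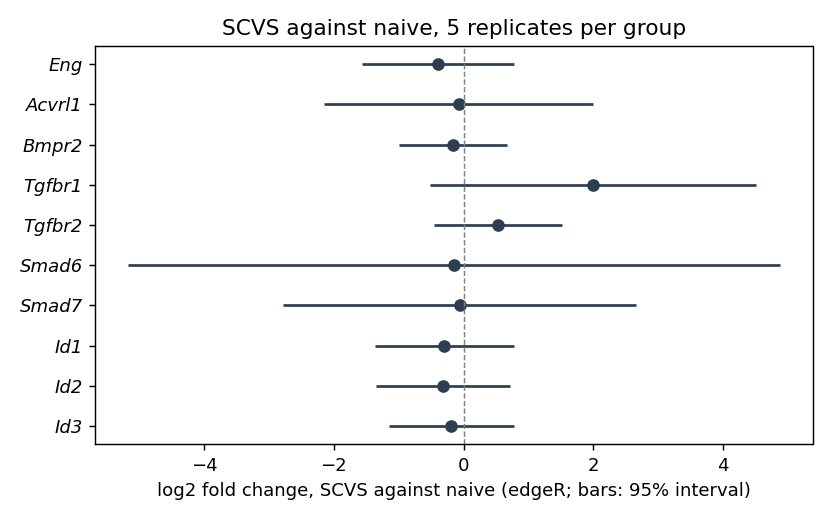
Log2 fold change of each gene in SCVS against naive mice from edgeR, with 5 replicates per group; points are estimates and bars their 95% intervals. All 10 intervals include 0, and they are widest for Smad6, from -5.17 to 4.87, and narrowest for Bmpr2, from -0.998 to 0.66.

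The inhibitory Smads were counted at low levels in both groups. Smad6 (ENSMUSG00000036867, chr9:63953076-64022085), which mainly restrains BMP receptors, had 171, 61, 0, 380 and 0 counts in naive and 305, 0, 0, 295 and 7 counts in SCVS replicates. These counts equal 16.4, 4.78, 0, 28.0 and 0 CPM in naive and 21.6, 0, 0, 22.3 and 0.701 CPM in SCVS mice. Each group held 2 replicates without a count, and the highest values of the groups were close. A count of 0 allows a level of up to 0.215 CPM in naive replicate 3, 0.225 CPM in naive replicate 5, 0.246 CPM in SCVS replicate 2 and 0.243 CPM in SCVS replicate 3. With means of 9.84 ± 12.2 CPM in naive and 8.93 ± 11.9 CPM in SCVS mice, the log2 fold change was -0.15 (SE 2.29, 95% interval -5.17 to 4.87). An interval this wide means that even a large change of Smad6 was not detectable at this spread, and its log2 fold change was 0.70 without naive replicate 4 and -0.85 without SCVS replicate 4.

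Smad7 (ENSMUSG00000025880, chr18:75367365-75395935), which inhibits TGF-β as well as BMP receptors, had 237, 168, 426, 892 and 0 counts in naive replicates and 433, 244, 481, 115 and 302 counts in SCVS replicates. This corresponds to 22.7, 13.2, 30.5, 65.7 and 0 CPM and to 30.7, 20.04, 39.0, 8.69 and 30.2 CPM, respectively. Both the highest and the lowest Smad7 values were naive, so that the SCVS values lay inside the naive range. The means were 26.4 ± 24.7 CPM in naive and 25.7 ± 11.7 CPM in SCVS mice, with a log2 fold change of -0.06 (SE 1.24, 95% interval -2.78 to 2.66). Smad7 was counted in 3 of the 4 replicates without a count of Smad6, and neither gene had a count in naive replicate 5. Without naive replicate 4, the highest for both, the Smad7 log2 fold change was 0.57, and without naive replicate 5 it was -0.37.

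The Id genes encode helix-loop-helix proteins without a DNA-binding domain, which hold back other transcription factors of that class and are induced by BMP receptors. Id1 (ENSMUSG00000042745, chr2:152736251-152737410) gave 615, 604, 1366, 719 and 114 CPM in naive and 449.7, 719, 413, 569 and 725 CPM in SCVS replicates. Naive replicates 3 and 5 were the highest and the lowest of all 10, and the SCVS values were the closer together. The mean was 683 ± 448 CPM in naive and 575 ± 146 CPM in SCVS mice, a log2 fold change of -0.30 (SE 0.49, 95% interval -1.37 to 0.77). Without naive replicate 3 this value was 0.13, and without naive replicate 5 it was -0.57.

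Id2 (ENSMUSG00000020644, chr12:25093799-25096092), which is also widely expressed in leukocytes, gave 399.8, 338, 231, 351 and 182 CPM in naive and 124, 119.9, 549, 177 and 242 CPM in SCVS replicates. SCVS replicates 1, 2 and 4 were below every naive replicate while SCVS replicate 3 was above all of them. Mean levels were 301 ± 90.4 CPM in naive and 242 ± 178 CPM in SCVS mice, with a log2 fold change of -0.32 (SE 0.47, 95% interval -1.35 to 0.71). The log2 fold change was -0.14 without SCVS replicate 2 and -0.90 without SCVS replicate 3. In the latter case Id2 had an unadjusted p under 0.05 in edgeR, which made 1 of 10 members in place of 0, beside 520 tested genes, and this was the only alternative in which a member did so. The smallest adjusted p of Id2 over all edgeR, DESeq2 and limma alternatives was 0.821. SCVS replicate 3 was thus high in Id2 and Tgfbr1 and low in Eng and Acvrl1.

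Id3 (ENSMUSG00000007872, chr4:136143822-136145392) was the most abundant member and gave 1452, 1208, 1409, 1266 and 222 CPM in naive and 1587, 1134, 936, 629.7 and 778 CPM in SCVS replicates. Apart from naive replicate 5, the naive values were close together, and 4 of 5 SCVS values lay below them. The means of 1112 ± 507 CPM in naive and 1013 ± 371 CPM in SCVS mice gave a log2 fold change of -0.19 (SE 0.44, 95% interval -1.16 to 0.78). The log2 fold change was -0.44 without naive replicate 5 and -0.054 without naive replicate 1, and the smallest adjusted p of Id3 over all edgeR, DESeq2 and limma alternatives was 0.913. Id3 supplied between 42.9% and 73.5% of the counts on the 3 Id genes, Id1 between 20.8% and 45.4%, and Id2 between 5.73% and 35.2%. The share of Id2 was highest in naive replicate 5 and next in SCVS replicate 3 at 28.9%.

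Set beside the pan-endothelial markers, 7 of the 10 members were highest in naive replicate 5, which follows in part from the low marker sum by which that replicate was singled out. Per 100 CPM of those markers, it had 40.5 CPM of Eng, 40.8 CPM of Bmpr2, 7.60 CPM of Tgfbr1, 12.5 CPM of Tgfbr2, 26.2 CPM of Id1, 42.0 CPM of Id2 and 51.1 CPM of Id3. The other 9 replicates had 4.27 to 9.74 CPM of Bmpr2, 1.87 to 13.3 CPM of Id2, 16.8 to 30.5 CPM of Id3 and at most 2.64 CPM of Tgfbr1. Acvrl1, at 0.190 CPM, and Smad6 and Smad7, at 0, did not share in this. Mural markers at 5078 CPM and neural and glial markers at 3278 CPM were present in the same replicate, and mural markers were higher still in naive replicate 1 and SCVS replicate 2. The part of these cells in the ratios was not tested.

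Levels were compared between genes per kilobase (kb) of exon, averaged over the 10 replicates. Exon lengths were those of GENCODE M1, such as 3507 bases for Bmpr2, 4267 for Acvrl1 and 8088 for Tgfbr2. They may differ from the annotation used in counting, and the order of genes depends on them. Id3 with 593 ± 236 CPM per kb and Id1 with 543 ± 275 CPM per kb (SD, n = 10) came highest, followed by Id2 with 214 and Eng with 180 CPM per kb. Bmpr2 with 96.6, Acvrl1 with 52.5 and Tgfbr2 with 36.3 CPM per kb formed the middle of the order. Smad7 with 5.77, Tgfbr1 with 5.44 and Smad6 with 2.99 CPM per kb were lowest. The order of these 3 differed between groups, with Smad7 at 5.84, Smad6 at 3.14 and Tgfbr1 at 2.14 CPM per kb in naive mice and Tgfbr1 at 8.74, Smad7 at 5.69 and Smad6 at 2.85 CPM per kb in SCVS mice. Only the step from Tgfbr2 to Smad7 held in all 10 replicates. Bmpr2 was above Acvrl1 in 9 replicates, Id1 above Id2 and Eng above Bmpr2 in 8, and Id3 above Id1 and Tgfbr1 above Smad6 in 7. Id2 exceeded Eng in 6 replicates, Acvrl1 exceeded Tgfbr2 in 6 and Smad7 exceeded Tgfbr1 in 5, so these neighbours did not differ beyond their spread.

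The spread between replicates was widest for the members of low level. The biological coefficient of variation (BCV), edgeR's estimate of the replicate SD relative to the mean, had a median of 1.46 over all tested genes. For the 7 members with a mean of at least 224 CPM, the BCV was lowest for Bmpr2 at 0.514 and highest for Acvrl1 at 1.00. Tgfbr1, Smad7 and Smad6, with means of 35.5, 26.1 and 9.38 CPM over the 10 replicates, had a BCV of 1.19, 1.31 and 2.54. Bmpr2 was at the 4.32 percentile of tested genes in BCV and Smad6 at the 81.8 percentile. The standard errors of these 3 genes were also the largest of the 10.

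Whether partner genes varied together was examined for 6 pairs across the 10 replicates on log2(CPM + 1), with two-sided permutation tests and adjustment over the 6 pairs. Eng and Acvrl1 had the strongest relation, with Pearson's r = 0.83 (permutation p = 0.0111, adjusted p = 0.0669) and Spearman's rho = 0.66 (permutation p = 0.0444, adjusted p = 0.266). After SCVS replicate 3 and naive replicate 5, the farthest from the median of Eng, were left out, r was 0.83 (permutation p = 0.0411, n = 8), and with values centred within each group it was 0.90. Without naive replicates 1 and 5 together, r was 0.97 and passed 0.05 after adjustment (permutation test, adjusted p = 0.0395), an alternative chosen after seeing the data. The pan-endothelial sum ran from 434 to 6694 CPM over the same replicates, and its part in the relation of Eng with Acvrl1 was not tested. Id1 and Id3 had r = 0.79 (permutation p = 0.0335, adjusted p = 0.101) but rho = 0.30 (permutation p = 0.405, adjusted p = 0.903). That relation rested on naive replicates 3 and 5, since r was -0.10 without them (permutation p = 0.825, n = 8). Weak correlations were found for Tgfbr1 with Tgfbr2 (r = -0.03, rho = -0.22), Smad6 with Smad7 (r = 0.26, rho = 0.19), Id1 with Id2 (r = 0.10, rho = -0.04) and Id1 with Smad6 (r = 0.13, rho = -0.04), and the smallest permutation p among these 4 pairs was 0.537, adjusted p = 0.903. With values centred within each group, r was -0.44 for Tgfbr1 with Tgfbr2, 0.29 for Smad6 with Smad7 and 0.13 for Id1 with Id2. It was 0.14 for Id1 with Smad6 and 0.79 for Id1 with Id3. Taken in naive and SCVS mice separately, r had opposite signs for each of these pairs, from 5 replicates per group. The cohort and sequencing run of each replicate were not given in the sources used here, so the relations were not computed within them.

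**Figure D3:**
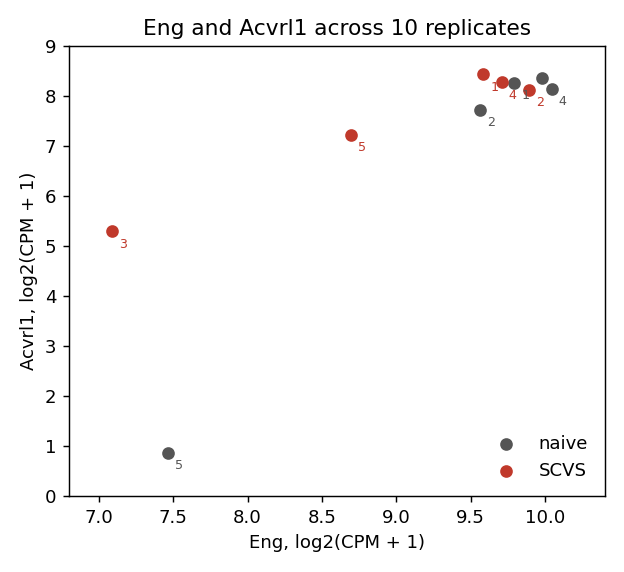
Levels of Eng and Acvrl1 as log2(CPM + 1) in each of the 10 replicates, naive in grey and SCVS in red, with the replicate number beside each point. Most replicates lie together at high levels of both genes, SCVS replicate 5 lies between, and SCVS replicate 3 and naive replicate 5 are low in both, with 38.2 and 0.825 CPM of Acvrl1.

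As a description, the genes most like the leading member of each role were sought among 9974 tested genes with a mean of at least 10 CPM, by Pearson's r over the 10 replicates. Eng was most like Tmbim1 (r = 0.99), Tmem203 (r = 0.98) and Bloc1s6 (r = 0.96). The closest to Smad7 were Ifi203 (r = 0.95), Dusp23 (r = 0.95) and Gm32688 (r = 0.94). Id3 was closest to Ccrl2 (r = 0.99), Itga1 (r = 0.97) and Plpp1 (r = 0.97). These pairs share 10 libraries and were picked as the highest of many, so no p is given.

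Other genes of the pathways were described through 6 lists with 72 genes, of which 59 were tested. No gene was called by edgeR, 25 were higher and 34 lower in SCVS mice, the median log2 fold change was -0.23 (-0.085 without SCVS replicate 3), and no gene had groups without overlap. Acta2 was the single gene of the 59 with an unadjusted p under 0.05 in edgeR, beside 3.1% of all tested genes. It was also the single gene called by DESeq2, beside 0.814% of all genes in that test. Of all tested genes, 0% were called by edgeR and 0.628% had groups without overlap. Among the ligands, 4 of 10 tested genes were higher and 6 lower, with a median of -0.46, which turned to 0.08 without naive replicate 5, while 1 was higher without naive replicate 4. Tgfb2, the most abundant, had 63.8 ± 19.1 CPM in naive and 69.5 ± 23.3 CPM in SCVS mice, whereas Bmp2, with the smallest p of the list, was at or under 3 counts in 5 replicates and had a log2 fold change of -3.79 (SE 2.67). Inha, a ligand subunit, and Nog, the BMP antagonist noggin, had at most 3 counts in every replicate.

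The 7 tested genes among the other receptors had log2 fold changes below 0 after TMM scaling, with a median of -0.57, but scaling by column totals left 6 below 0 and Bmpr1a above it. Without naive replicate 1 the median was -0.31, with Acvr2b and Bmpr1b above 0, and without naive replicate 5 it was -0.86. Acvr1, the gene of the BMP type I receptor ALK2, gave 47.7, 58.2, 59.0, 0 and 0 CPM in naive and 0, 0.164, 0, 0.605 and 14.9 CPM in SCVS replicates. Its groups overlapped through naive replicates 4 and 5, and the log2 fold change of -3.40 (SE 2.43) did not pass (edgeR adjusted p = 0.99996). Tgfbr3, the co-receptor betaglycan and the most abundant of the list, had 109 ± 86.7 CPM in naive and 78.5 ± 71.0 CPM in SCVS mice. The signal-transducing Smads divided into 3 higher and 2 lower of 5 tested, with a median of 0.08 that ranged from -0.09 without SCVS replicate 2 to 0.35 without SCVS replicate 5 and was -0.34 with a replicate block. Smad1, which carries BMP signals, was both the most abundant and the one with the smallest p, at 64.4 ± 52.7 CPM in naive and 157 ± 78.6 CPM in SCVS mice and a log2 fold change of 1.27 (SE 0.97). Like Tgfbr1, Smad1 was nearly absent from naive replicate 1, with 2 counts, and highest in SCVS replicate 3, with 3080. Naive replicate 1 was also lowest, and SCVS replicates 3 and 4 highest, in both Smad1 and the sum of lymphatic markers, whose part in the Smad1 values was not tested.

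Of the 11 tested extracellular regulators, 5 were higher and 6 lower, with a median of -0.05, whereas 6 were higher when scaled by column totals and 7 with a replicate block, where the median was 0.32. With single replicates left out this median ranged from -0.28 without SCVS replicate 1 to 0.11 without SCVS replicate 5. Ltbp4, a binding protein of latent TGF-β, had the highest mean over all replicates. It was at 269 ± 176 CPM in naive and 345 ± 77.5 CPM in SCVS mice. Mgp was higher in naive mice, at 324 ± 222 CPM, and lower in SCVS mice, at 251 ± 192 CPM. Crim1, which binds BMPs, had the smallest p (log2 fold change 0.72, SE 0.54). Of the 10 intracellular regulators, 6 were higher and 4 lower, with a median of 0.29. It was 0.098 without naive replicate 1 and 0.14 without naive replicate 5, and with both left out it turned to -0.047, with 4 higher and 6 lower. Fkbp1a, whose product binds type I receptors, led this list with 645 ± 197 CPM in naive and 703 ± 225 CPM in SCVS mice. Smurf2, a ubiquitin ligase for Smads and receptors, gave 29.3, 43.1, 49.2, 11.4 and 8.63 CPM in naive and 136, 34.9, 173, 52.7 and 23.9 CPM in SCVS replicates. Although 3 SCVS replicates exceeded every naive one, the log2 fold change of 1.55 (SE 0.74) did not pass (edgeR adjusted p = 0.99996, DESeq2 adjusted p = 0.876).

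Target genes other than the members were higher in 7 and lower in 9 of 16 tested, with a median of -0.30. That median ranged from -0.056 without SCVS replicate 3 to -0.61 without SCVS replicate 5, with 5 higher and 11 lower without naive replicate 5, and it was -1.26 with a covariate for how many genes were detected. Ccn2 had the highest mean over all replicates, with 424 ± 516 CPM in naive and 287 ± 252 CPM in SCVS mice. It stood at 1312 CPM in naive replicate 2 and had 2 counts in naive replicate 5. In naive mice Acta2 was close, at 423 ± 650 CPM, and in SCVS mice Klf2 was higher, at 311 ± 124 CPM. Acta2, a TGF-β target that is also on the list of mural markers, gave 1526, 506, 47.9, 14.8 and 20.7 CPM in naive and 84.7, 14.1, 20.3, 1.59 and 15.1 CPM in SCVS replicates. Naive replicates 1 and 2 stood above all others, and the log2 fold change of -4.04 (SE 1.41) had an adjusted p of 0.964 in edgeR and 0.06 in DESeq2. The 6 mural markers other than Acta2 summed to 6065, 668, 738, 3691 and 5057 CPM in naive and to 1056, 5915, 3246, 3077 and 438 CPM in SCVS replicates. Rgs5 made up most of each of these sums. The smooth muscle gene Tagln was, like Acta2, highest in naive replicates 1 and 2, with 212 and 53.8 CPM, and Myh11 was highest in naive replicate 2 with 47.6 CPM, followed by SCVS replicate 2 with 12.2 CPM and naive replicate 1 with 6.14 CPM. The part of mural cells in the Acta2 values was not tested.

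The promoters of 7 of the 10 members (8 windows), from 250 bases before to 50 bases after the RefSeq start in GRCm38.p6, were searched for 2 motifs known to be bound by Smads. GGCGCC, a GC-rich motif of the BMP Smads, and GTCTAGAC, the palindrome bound by Smad3 and Smad4, each read the same on both strands and do not overlap each other. GGCGCC was found in Bmpr2, Tgfbr1 and Id2, beside 11.9% of 32851 promoters, and GTCTAGAC in Smad6, beside 0.213%. The matches are shown 5′ to 3′ on the strand of the gene with the motif in capitals, to give the sequence context of these members; a match is a description and not a binding site.
Bmpr2 (chr1:59764158-59764195, plus strand): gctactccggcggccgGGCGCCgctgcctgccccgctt
Tgfbr1 (chr4:47352973-47353010, plus strand): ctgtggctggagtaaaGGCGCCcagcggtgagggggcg
Id2 (chr12:25096302-25096339, minus strand): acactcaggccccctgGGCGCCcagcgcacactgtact
Smad6 (chr9:64022056-64022079, minus strand): gcggagccgccaaagtGTCTAGAC
The 3 GC-rich matches lie upstream of the annotated starts. The Smad6 window is set on a start at 64022059, inside the annotated gene, whose 5′ end is at 64022085, so that the Smad6 match spans the window's start and lies within the gene. The promoters of Acvrl1, Smad7 and Id1 were not analysed here.

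Eng overlaps Mir1954, LOC115489602 and Fpgs in the RefSeq annotation, Tgfbr1 overlaps Gm32435, Tgfbr2 overlaps Gm31292 and Smad7 overlaps Gm41776. Reads from these overlaps cannot be assigned with certainty, since the use of strand in counting was not given in the sources used here. Acvrl1, Bmpr2, Smad6, Id1, Id2 and Id3 overlap no other annotated gene.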

How the data were processed

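RNA of cells sorted as meningeal LECs was measured in 10 replicates. The authors deposited raw counts per gene, neither normalized nor filtered; the submitters' processing notes name cutadapt 1.9.1, HISAT2 2.0.1, HTSeq 0.6.1 and GRCm38, whereas the study's methods name mm9. Of the table's identifiers, 58.8% are in the mm9 annotation GENCODE M1, which was used for exon lengths only; coordinates and promoters are from RefSeq GRCm38.p6. Replicates were grouped by the treatment in their labels. Members and gene lists were chosen with earlier results of these data known.

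A gene was tested if 3 or more of the 10 replicates exceeded 5 counts, the filter stated in the study's methods. Groups were compared by the quasi-likelihood test of edgeR 4.0.16 in R 4.3.3 with TMM normalization, group as the only term, Benjamini-Hochberg adjustment over all tested genes and a threshold of 0.1. The SE is the absolute log2 fold change divided by the square root of F. CPM used column totals, and relations used log2(CPM + 1) with 100000 resamples. Python 3.11.15, NumPy 2.4.6, SciPy 1.17.1, pandas 2.3.3 and Matplotlib 3.10.9 were used. No further normalization by marker genes entered the tests.

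Named genes were all members, the most abundant gene and the tested gene with the smallest edgeR p of each pathway list, any gene past the threshold, the most abundant gene of each marker list, list genes with at most 3 counts in every replicate, and the 3 genes most like the leading member of each role. Abundance was ranked by the mean CPM over all replicates. Other list genes, such as Pecam1, Prox1, Ptprc, Tagln, Myh11, Mgp, Klf2 and Egr1, were named after their values were seen. Ctgf and Cyr61 are listed as Ccn2 and Ccn1, and Hbb-b1 and Hbb-b2 were not analysed here.

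Alternatives were DESeq2 1.42.0 with and without its Cook's filter, limma 3.58.1 with voom and quality weights, DESeq2 size factors or column totals in edgeR, no filter or filterByExpr, a replicate block, a covariate for how many genes were detected, 0.1 as the pseudocount, TMM-scaled CPM, and each replicate left out in turn. Leaving out naive replicates 1 and 5 together was added after seeing the data.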

Additional observations from a re-analysis of the deposited data

Results flagged for a closer look

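Each member was examined in each group, 20 groups of 5 replicates in all, for a replicate whose gap to its nearest neighbour exceeded 0.71 of the group's range. For independent values of a normal distribution, such a gap arises in about 1 in 20 groups, and 3 were found. The CPM were not checked for that distribution and the 20 groups share the same 10 libraries. No excess is therefore read from this number. Tgfbr2 at 604 CPM in SCVS replicate 2 was far above the other SCVS replicates. Id2 at 549 CPM in SCVS replicate 3 was far above the other SCVS replicates, and the log2 fold change was -0.90 without it. Id3 at 222 CPM in naive replicate 5 was far below the other naive replicates, in a library whose pan-endothelial markers summed to 434 CPM.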

How the results depend on the processing

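No member was called in any of the 20 alternatives, and the smallest adjusted p of a member was 0.356, for Tgfbr1. Of 200 member values under the alternatives, 180 kept their direction and 20 turned, in 5 members. Eng, Id2 and Id3 were lower in SCVS mice under each alternative, while Tgfbr1 (log2 fold change 1.59 to 3.10) and Tgfbr2 (0.28 to 0.75) were higher. Over all genes, DESeq2 called 114, DESeq2 without its Cook's filter 123 and limma 3, where edgeR called 0; at an unadjusted p under 0.05 there were 661, 712, 774 and 460 genes. In edgeR the last number was 498 to 812 with single replicates left out, 266 with a replicate block, 139 with filterByExpr and 4941 with no filter.

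In limma, Acvrl1 turned to 0.33 and Smad7 to 0.46 while Smad6 moved to -1.64, and with a covariate for how many genes were detected Bmpr2 turned to 0.12. With single replicates left out, the log2 fold change ranged from -0.39 to 0.20 for Acvrl1, from -0.43 to 0.070 for Bmpr2, from -0.57 to 0.13 for Id1, from -0.85 to 0.70 for Smad6 and from -0.37 to 0.57 for Smad7. Eng ranged from -0.64 to -0.13, Id2 from -0.90 to -0.14 and Id3 from -0.44 to -0.054. The list medians turned sign with single replicates for the ligands (-0.65 to 0.08), the signal-transducing Smads (-0.09 to 0.35) and the extracellular regulators (-0.28 to 0.11), and that of the ligands was 0.07 with filterByExpr. Outside these ranges, the median of the signal-transducing Smads was -0.34 with a replicate block, -0.32 with the covariate and -0.22 in limma, and that of the extracellular regulators was 0.32 with a replicate block and 0.29 in limma. The cause of these turns was not tested. No member had groups without overlap when a replicate was left out, where 169 to 201 tested genes did.

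Replicate numbers are shared between groups, and each replicate is its own pool of animals. The deviations of replicates with the same number correlated at -0.02 to 0.15, and 7 of 10 libraries correlated best with their own number. The number to be had without any pairing was not computed. The paper states that its RNA-seq used more than a single cohort of mice. Separate pools can share a cohort or a sorting day, whose part in these correlations was not tested. The main test had group as its only term. With a replicate block, Acvrl1 turned to 0.31 and Smad7 to 0.54, and 0 genes were called. The log2 fold change of Tgfbr1 went from 2.00 to 3.10, that of Tgfbr2 from 0.53 to 0.71 and that of Id2 from -0.32 to -0.58. Those of Id1 and Id3 shrank to -0.05 and -0.03.

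Without naive replicates 1 and 5, an alternative chosen after seeing the data, 1 of 6 relations passed 0.05 after adjustment (Eng with Acvrl1, r = 0.97). The correlation turned to 0.24 for Tgfbr1 with Tgfbr2, -0.076 for Smad6 with Smad7, -0.13 for Id1 with Id2 and -0.34 for Id1 with Smad6, and that of Id1 with Id3 fell from 0.79 to 0.21. With 5 pools per group and a common BCV of 1.59, wide intervals limit all members, most of all Smad6, which had no count in 4 replicates.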
